A study of Mus musculus with 9 samples.

Results

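The CXC chemokines that act on Cxcr1 and Cxcr2 were followed in mouse heart after ischemia and reperfusion. The group was chosen by name and holds 7 of the 54532 genes in the count table, the 5 ligands Cxcl1, Cxcl2, Cxcl3, Cxcl5 and Ppbp and the 2 receptors Cxcr1 and Cxcr2. RNA of heart tissue was sequenced in male wild-type mice of the C57BL/6J strain, 8 to 10 weeks old. In the sham group the chest was opened and the thread was passed around the left anterior descending artery without being tied. In the MIRI (myocardial ischemia/reperfusion injury) group the artery was closed for 30 min and reopened for 24 h, and the mice received saline. The GXNI group had the same surgery and received Guanxinning injection, a plant extract of Chinese medicine given to heart patients, at 9 mL/kg into the tail vein within 10 min of ischemia. Each group had 3 mice with 1 library each, numbered 1 to 3 as in the labels. Whether a surgery day or batch was shared is not given in the sources used here.

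Chemokines of this family carry a glutamate-leucine-arginine motif before their paired cysteines and draw neutrophils out of the blood. Cxcr2 is the main receptor for them on mouse neutrophils and signals through an inhibitory G protein. Humans use interleukin-8 for the same purpose, and mice lack that gene. Injured and inflamed tissue is known to switch on Cxcl1, Cxcl2 and Cxcl3 through NF-kappa-B. Ppbp is stored in platelets as a precursor that yields the active chemokine when cut, and Cxcl5 is made largely by epithelial and stromal cells.

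The 5 ligand genes lie on the forward strand of chromosome 5 (GRCm38) within 146.6 kb, in the order Cxcl5 (90759360 to 90761624), Ppbp (90768518 to 90770063), Cxcl3 (90786103 to 90789600), Cxcl1 (90891241 to 90893115) and Cxcl2 (90903871 to 90905938). Pf4, which encodes platelet factor 4, and Cxcl15, a lung chemokine with 0 counts in all 9 libraries, lie between them. The receptors are neighbours on chromosome 1, Cxcr2 on the forward strand (74153989 to 74161246) and Cxcr1 on the reverse strand (74191785 to 74194631), 30.5 kb apart. No member overlaps another annotated gene. Cxcl2 and Cxcl3 are the pair most open to shared reads, as 126 stretches of 50 bases, 5.84% of those in Cxcl2 transcripts, also occur in another gene, and that gene is Cxcl3. Cxcl3 shared 4.29% of its stretches with 78 other genes, Cxcl2 among them. For Cxcr2 the share was 6.68% (220 other genes) and for Cxcl5 0.693% (9 other genes), and Cxcl1, Ppbp and Cxcr1 shared none.

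The 100 bases before the start of 4 ligand genes (for Cxcl3 the RefSeq start, 2 bases ahead of the GENCODE one) are shown because Cxcl1, Cxcl2 and Cxcl3, the ligands that were called higher below, carry the same 10 letters there and Ppbp does not. The sequences are those of RefSeq on the forward strand of GRCm38, at chr5:90891141-90891240, chr5:90903771-90903870, chr5:90786001-90786100 and chr5:90768418-90768517 in turn. Capitals mark GGGAATTTCC, a form of the NF-kappa-B site, in the first 3, and the letters of the TATA box in Cxcl3 and Ppbp.
Cxcl1: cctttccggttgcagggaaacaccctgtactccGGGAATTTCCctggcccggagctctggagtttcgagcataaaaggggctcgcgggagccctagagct
Cxcl2: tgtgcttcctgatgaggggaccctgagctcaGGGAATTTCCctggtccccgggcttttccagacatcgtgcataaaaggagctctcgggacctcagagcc
Cxcl3: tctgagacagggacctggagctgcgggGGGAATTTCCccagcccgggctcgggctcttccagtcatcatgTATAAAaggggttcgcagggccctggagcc
Ppbp: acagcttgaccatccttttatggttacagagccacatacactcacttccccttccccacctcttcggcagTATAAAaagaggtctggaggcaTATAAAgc

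The letters begin 67 bases before the start of Cxcl1, 69 before that of Cxcl2 and 75 before that of Cxcl3, counted from the GENCODE starts. They were picked after these promoters had been read. Searched on both strands of windows from 250 bases before to 50 after the start, GGGAATTTCC occurred in 29 of 32851 promoters (0.0883%) and TATAAA in 4473 (13.6%). The looser NF-kappa-B consensus, which covers these letters, occurred in 1480 (4.51%). Promoters of 6 of the 7 members were matched, all but that of Cxcl5. Ppbp, Cxcr1 and Cxcr2 held neither NF-kappa-B form in the window.

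The libraries held 17119454 to 22811295 counts, and 3 counts correspond to 0.132 to 0.175 CPM, the count scaled to the size of the library. Although the labels give cardiomyocytes as the cell type, markers of endothelial cells (572 to 1050 CPM summed over 6 genes), fibroblasts (449 to 958 CPM over 6 genes) and macrophages (375 to 714 CPM over 9 genes) were present in all libraries beside those of cardiomyocytes (25000 to 40800 CPM over 7 genes). In bulk tissue, fewer cells of a type and less RNA per cell cannot be told apart. None of the 6 libraries from ischemic hearts had its nearest neighbour in its own group over the 15207 genes tested. By Spearman's rho, MIRI 1 and MIRI 3 were nearest to GXNI 3 (0.986 and 0.987), GXNI 3 to MIRI 3 (0.987), GXNI 2 to MIRI 1 (0.98), MIRI 2 to GXNI 1 (0.982) and GXNI 1 to sham 1 (0.984). The labelled groups are the main grouping. For the members, the comparisons between groups are also given without MIRI 2 and GXNI 3 and with the 2 exchanged, a choice taken up from earlier results of these data.

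Each of the 7 genes was above every sham heart in 3 or more of the 6 ischemic ones, though Cxcr1 reached at most 19 counts. Cxcl1, also called KC, had 23, 35 and 79 counts in the sham libraries, 939, 53 and 1203 in MIRI 1 to 3 and 78, 249 and 1379 in GXNI 1 to 3. The counts of Cxcl2, or MIP-2, were 9, 12 and 6 in sham, 1148, 13 and 1543 in MIRI and 7, 286 and 1243 in GXNI. Cxcl3 had 2, 0 and 4 counts in sham, 1692, 16 and 3195 in MIRI and 5, 627 and 1373 in GXNI. In each of these 3 genes MIRI 1, MIRI 3, GXNI 2 and GXNI 3 were far above the sham libraries, and MIRI 2 and GXNI 1 lay near them. Only Cxcl3 was higher in all 6 ischemic hearts than in every sham heart, and for MIRI 2 and GXNI 1 that rests on 16 and 5 counts.

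Cxcl5 had the highest mean level of the ligands in sham (5.72 ± 5.93 CPM per kb, SD, n = 3), with most of it in sham 3. It had 86, 54 and 369 counts in sham, 1470, 112 and 2358 in MIRI and 103, 859 and 2426 in GXNI. As for Cxcl1 and Cxcr2, sham 3 lay above MIRI 2 and GXNI 1. Ppbp, the platelet chemokine, had 24, 24 and 11 counts in sham, 90, 24 and 468 in MIRI and 15, 148 and 117 in GXNI. It was highest in MIRI 3, at 20.3 CPM, followed by GXNI 2 at 7.34 CPM.

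The receptors were far apart in level. Cxcr2 had 67, 25 and 83 counts in sham, 1234, 14 and 1253 in MIRI and 52, 330 and 1275 in GXNI. Cxcr1 had 0, 1 and 1 counts in sham, 8, 0 and 19 in MIRI and 0, 1 and 9 in GXNI. Both receptors were highest in MIRI 1, MIRI 3 and GXNI 3, but in GXNI 2, where Cxcr2 was above every sham library, Cxcr1 had 1 count.

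**Figure D1:**
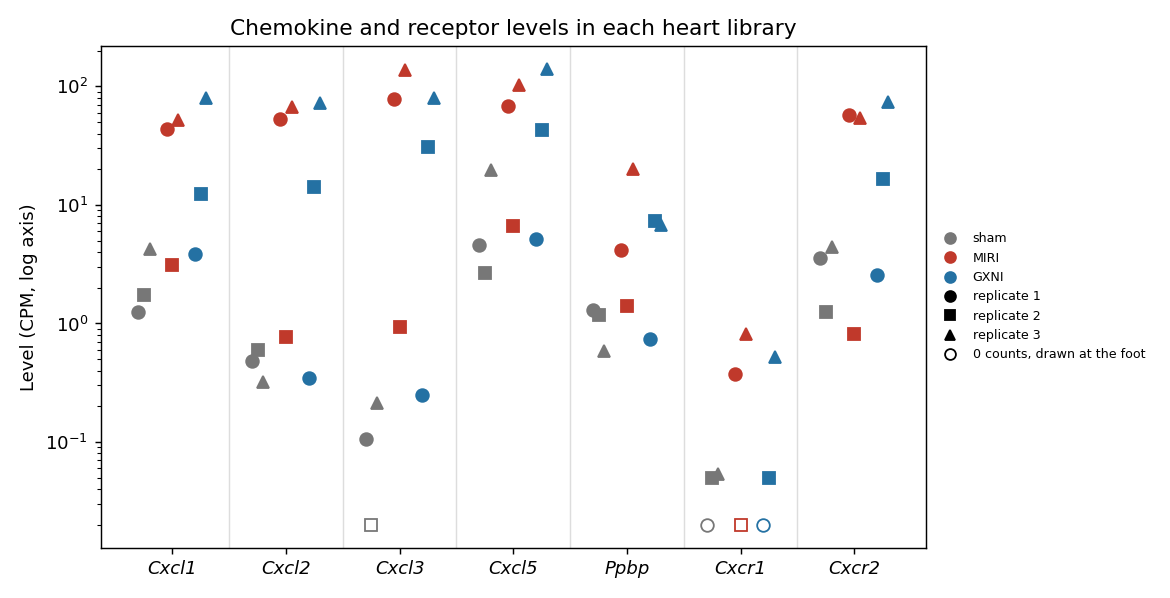
Level of each chemokine and receptor in CPM on a log axis, with 1 point per library, coloured by group and shaped by replicate, and open points at the foot for 0 counts. MIRI 2 and GXNI 1 sit near the sham points for every gene, and Cxcr1 reaches at most 0.823 CPM while Cxcr2 reaches 74.0 CPM.

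Per transcript length, the make-up of the ligands also differed between libraries. The summed level of the 5 ligands was 4.94 to 17.9 CPM per kb in sham, 199, 10.1 and 310 CPM per kb in MIRI and 8.43, 85 and 297 CPM per kb in GXNI. In the sham hearts Cxcl5 and Cxcl1 led, with 34.4 to 70.0% and 22.4 to 36.9% of this sum, and Cxcl3 made up 0 to 1.83%. The share of Cxcl3 was 38.9% and 43.9% in MIRI 1 and MIRI 3 and 36.0% and 26.4% in GXNI 2 and GXNI 3, and by this scaling it was the leading ligand in the first 3 of these. In MIRI 2 and GXNI 1 its share was 9.18% and 2.90%. The share of Cxcl2 was 0.965 to 6.48% in sham and 8.97 to 14.4% in the same 4 libraries. Shares were not tested, and they depend on the length chosen. The longest protein-coding transcript was used, 1016 bases for Cxcl3 and 1575 for Cxcl5. All annotated exons together hold 3498 bases for Cxcl3 and 1863 for Cxcl5, and by those lengths Cxcl3 would not lead. In CPM, Cxcl3 was above Cxcl5 in MIRI 1 (78.7 against 68.3) and MIRI 3 (138 against 102) but below it in GXNI 2 (31.1 against 42.6).

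**Figure D2:**
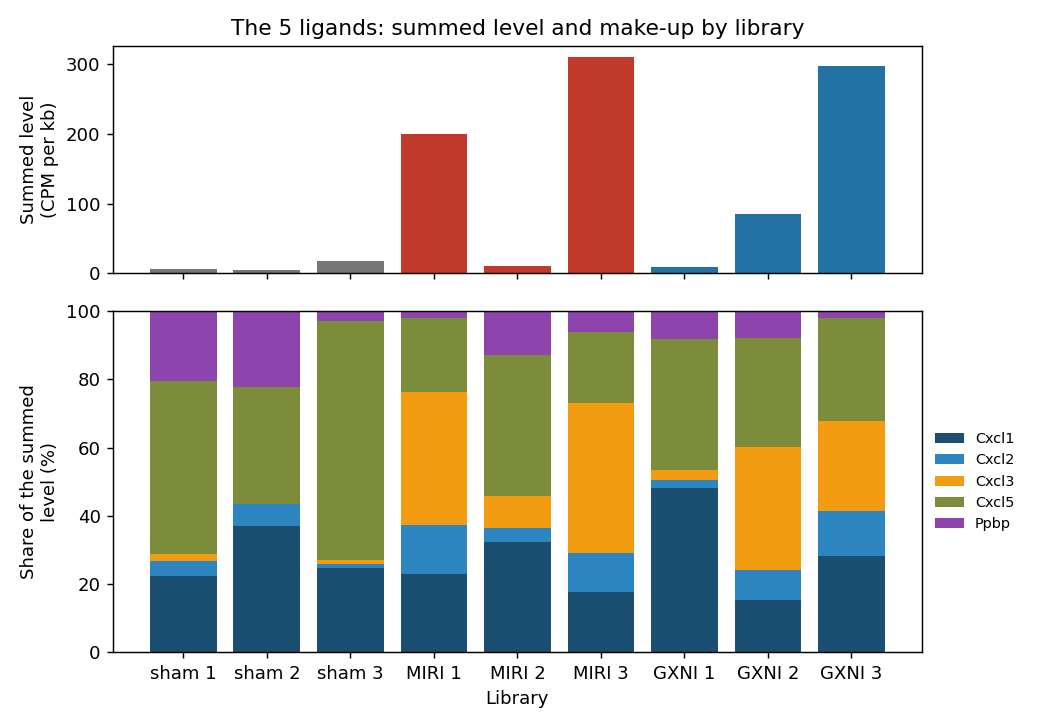
The upper bars give the summed level of the 5 ligands in CPM per kb of transcript in each library, and the lower bars the percentage of that sum from each ligand. The length used is that of the longest protein-coding transcript. The orange part, Cxcl3, is at most 1.83% in sham and 26.4 to 43.9% in MIRI 1, MIRI 3, GXNI 2 and GXNI 3.

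Cxcr1 was a small part of the receptor counts wherever there were enough of them to tell. It made up 8 of 1242 counts for the receptors in MIRI 1 (0.644%, exact 95% interval 0.278 to 1.27%), 19 of 1272 in MIRI 3 (1.49%, 0.902 to 2.32%) and 9 of 1284 in GXNI 3 (0.701%, 0.321 to 1.33%). In GXNI 2 the share was 0.302% (0.00765 to 1.67%). The other 5 libraries had 14 to 84 receptor counts, and their intervals reach 5.36% or more. These intervals, by the Clopper-Pearson method, cover counting error only. The shares are not scaled to transcript length, which was 3046 bases for Cxcr2 and 1451 for Cxcr1. Per kb, MIRI 3 held 0.567 CPM of Cxcr1 and 17.8 CPM of Cxcr2.

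The first comparison set the 6 ischemic hearts, with and without the drug, against the 3 sham hearts, and so does not depend on which ischemic library belongs to which group. Cxcl1, Cxcl2 and Cxcl3 were called higher and no member was called lower. A call required a 1.5-fold difference or more together with p no larger than 0.01, before adjustment, in edgeR's quasi-likelihood test. The study set the same thresholds for its own test in DESeq2. Of all 15207 genes tested 5.52% were called higher and 2.85% lower. Of the 7 members 6 passed the filter on low counts and Cxcr1 did not. The mean of Cxcl3 was 54.8 ± 54.1 CPM (SD, n = 6) against 0.107 ± 0.107 CPM (SD, n = 3), a log2 fold change of 8.95 ± 2.34 (SE). With 2, 0 and 4 counts of Cxcl3 in sham, the size of this change is poorly fixed. Without sham 1, 2 or 3 in turn, the log2 fold change was 8.96, 8.35 and 9.88. Cxcl2 stood at 34.6 ± 33.3 against 0.467 ± 0.138 CPM (log2 fold change 6.19 ± 1.80) and Cxcl1 at 32.5 ± 31.2 against 2.40 ± 1.60 CPM (3.76 ± 1.16). Their edgeR p-values were 0.003431, 0.006482 and 0.009052, and 0.08754, 0.09053 and 0.09671 after Benjamini-Hochberg adjustment over all genes tested, so that none passes an adjusted threshold of 0.05. The SDs are about as large as the means. MIRI 2 and GXNI 1 were low, and MIRI 1, MIRI 3, GXNI 2 and GXNI 3 also differed among themselves. They ran from 31.1 to 138 CPM for Cxcl3 and from 12.3 to 80.0 CPM for Cxcl1.

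Cxcr2, Cxcl5 and Ppbp missed the threshold in this comparison. Cxcr2 averaged 34.2 ± 31.5 CPM in the ischemic and 3.09 ± 1.66 CPM in the sham hearts (log2 fold change 3.47 ± 1.30, edgeR adjusted p 0.1233). The log2 fold change was 2.76 ± 1.14 for Cxcl5 (adjusted p 0.1466) and 2.72 ± 0.97 for Ppbp (adjusted p 0.1152). With MIRI 2 and GXNI 3 left out, Cxcr2 was also called (3.41 ± 1.0, edgeR unadjusted p 0.008762, with 6.6% of all genes called higher). DESeq2, or edgeR with no filter, called Cxcr2 and Ppbp beside the first 3, at 5.18% and 2.25% of all genes. At an adjusted p of 0.05, 0 members and 0.0263% of all genes passed. Leaving out any 1 sham library ended every call, at 1.63 to 2.19% of all genes. Without MIRI 1, MIRI 3 or GXNI 3, Cxcl3 alone was called, at 3.44 to 3.77% of all genes, and without MIRI 2 the calls were 5, with Cxcr2 and Ppbp, at 9.67%. Of the members, Cxcl3 alone had ischemic and sham values that did not overlap, as did 7.96% of the genes tested in the same direction.

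For Cxcr1 a ratio of summed counts was taken in place of a fit. There were 37 counts in the 6 ischemic libraries and 2 in the 3 sham libraries, a ratio per library size of 9.33 with an exact 95% interval of 2.41 to 79.9 for counting error. As 28 of the 37 counts came from MIRI 3 and GXNI 3, the spread between hearts is wider than this interval conveys.

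Injury without the drug was examined next, with the 3 MIRI against the 3 sham libraries. Cxcl1, Cxcl2 and Cxcl3 were called higher, 3 of the 6 members tested, where 6.15% of all genes were (2.82% lower). The log2 fold changes were 3.79 ± 1.0, 6.42 ± 1.48 and 9.36 ± 1.97, with edgeR adjusted p of 0.09333, 0.07997 and 0.07592. The size for Cxcl3 again rests on very few sham counts. Cxcr2 (3.62 ± 1.25), Ppbp (3.08 ± 0.96) and Cxcl5 (2.72 ± 1.07) had edgeR adjusted p of 0.1291, 0.1134 and 0.1568 and were not called. DESeq2 called Cxcr2 and Ppbp as well (5.34% of all genes), edgeR with no filter Cxcl5 too (2.94%), and at an adjusted p of 0.05 no member and 0.0137% of genes passed. Leaving out sham 1 or sham 2 left 0 calls, sham 3 or MIRI 1 left 1 (Cxcl3), and MIRI 3 left 2 (Cxcl2 and Cxcl3), at 2.25 to 3.19% of all genes. Values of the groups did not overlap for Cxcl2, Cxcl3 and Ppbp, as for 16.7% of genes tested that were higher in MIRI.

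In this comparison, leaving out MIRI 2 and GXNI 3 removed MIRI 2 alone, the lowest MIRI library for each member tested. That left MIRI 1 and MIRI 3 against the sham libraries. The standard errors of all 6 members were then smaller, and all 6 members tested were called higher, where 16.9% of all genes were. Then the log2 fold change was 6.99 ± 0.22 for Cxcl2, 9.94 ± 0.47 for Cxcl3, 4.32 ± 0.39 for Cxcl1, 4.19 ± 0.38 for Cxcr2, 3.57 ± 0.65 for Ppbp and 3.25 ± 0.69 for Cxcl5, and the largest edgeR adjusted p was 0.008066. With the groups as labelled but without MIRI 3, the log2 fold change of Ppbp was 1.47 ± 0.57. With the libraries exchanged all 6 were called as well (19.2% of all genes), at log2 fold changes between 3.34 for Ppbp and 9.80 for Cxcl3. DESeq2 with the exchange called all 7 members, Cxcr1 among them, where 10.7% of all genes were called higher. Cxcr1 counts were then 36 over the 3 MIRI libraries against 2 in sham, a ratio of 17.7 (exact 95% counting interval 4.55 to 151), compared with 13.1 (3.29 to 114) as labelled and 18.5 (4.65 to 161) without both.

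The effect of the drug among ischemic hearts was tested with the 3 GXNI against the 3 MIRI libraries. As labelled, 0 of the 6 members tested were called in either direction. Across all genes edgeR called 0 higher (0%) and 3 lower (0.0203%), with 47 genes at an unadjusted p under 0.05, and DESeq2 called 4 higher (0.0142%) and 7 lower (0.0249%). The log2 fold changes were -0.03 ± 1.24 for Cxcl1, -0.47 ± 1.68 for Cxcl2, -0.96 ± 1.75 for Cxcl3, 0.10 ± 1.22 for Cxcl5, -0.78 ± 1.08 for Ppbp and -0.27 ± 1.44 for Cxcr2. With standard errors above 1 log2 unit, neither a halving nor a doubling can be told from no difference at this number of mice. GXNI 1, 2 and 3 held 10.3, 108 and 379 CPM of the 5 ligands together, against 248, 12.8 and 380 CPM in MIRI 1 to 3, so the groups covered nearly the same range. No member had groups that did not overlap, against 1.38% of genes that were lower in GXNI without overlap.

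Without MIRI 2 and GXNI 3, GXNI 1 and GXNI 2 stood against MIRI 1 and MIRI 3. All 6 members tested were then lower in GXNI by point estimate and Cxcl1 was called (log2 fold change -2.55 ± 0.50, edgeR adjusted p 0.188), where 3.47% of all genes were called lower. Cxcr2 stood at -2.55 ± 0.74 (adjusted p 0.2054) and Cxcl2 at -3.04 ± 1.16 (adjusted p 0.246). With the libraries exchanged Cxcl1 (-3.16 ± 0.51), Cxcl2 (-3.63 ± 1.02) and Cxcr2 (-3.21 ± 0.82) were called lower, with edgeR adjusted p of 0.01434, 0.03817 and 0.03043, where 10.7% of all genes were. Cxcl5 (-2.51 ± 0.75, unadjusted p 0.01012), Cxcl3 (-3.18 ± 1.23) and Ppbp (-1.69 ± 0.84) were not. DESeq2 with the exchange called Cxcl1, Cxcl2, Cxcl5, Cxcr1 and Cxcr2 lower, at 6.78% of all genes.

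For Cxcr1, the receptor the study is about, MIRI held 27 and GXNI 10 counts as labelled, a ratio of 2.49 (exact 95% counting interval 1.17 to 5.76), but the 3 libraries of each group overlapped. Exchanged, the counts were 36 and 1 (ratio 34.1, 5.73 to 1382), and without both libraries 27 and 1 (ratio 24.5, 4.03 to 1002).

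**Figure D3:**
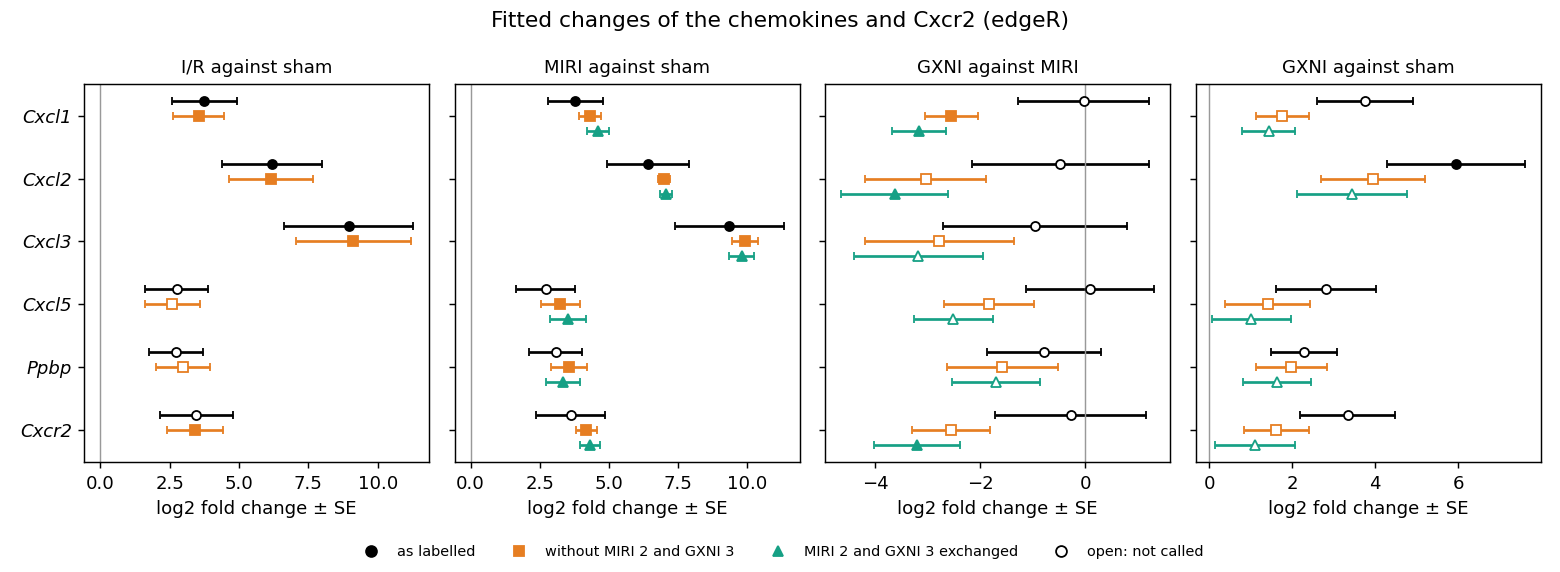
Log2 fold change with its SE (edgeR) of the 6 members that passed the filter, for the 4 comparisons, as labelled (circles), without MIRI 2 and GXNI 3 (squares) and with both exchanged (triangles). Filled points passed the thresholds on fold and unadjusted p, and in the third panel the circles lie near 0 while the squares and triangles lie between -1.58 and -3.63.

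Treated hearts were also set against sham hearts. As labelled, Cxcl2 was the member called higher (log2 fold change 5.94 ± 1.66, edgeR adjusted p 0.2188), where 2.67% of all genes were (1.54% lower). Cxcl1 followed with 3.76 ± 1.16 (adjusted p 0.2229), Cxcr2 with 3.34 ± 1.14, Cxcl5 with 2.82 ± 1.21 and Ppbp with 2.28 ± 0.80. Cxcl3 was under the filter here with Cxcr1. DESeq2 and edgeR with no filter each called 5 members, at 3.56% and 1.83% of all genes. At an adjusted p of 0.05, no member and 0% of genes passed. Groups overlapped for every member tested, while 13.5% of genes were higher in GXNI without overlap. Without MIRI 2 and GXNI 3 (2.11% of all genes called higher), with both exchanged (2.16%), and with DESeq2 and the exchange (1.59%), no member was called. Here, leaving both out removed GXNI 3 alone. Without GXNI 1 all 6 members tested were called, where 10.7% of all genes were, and leaving out any other single library of either group left 0, at 0.551 to 2.11% of all genes. With MIRI 2 and GXNI 3 left out and exchanged in turn, Cxcl2 stood at 3.94 ± 1.25 and 3.44 ± 1.33, Cxcl1 at 1.76 ± 0.64 and 1.44 ± 0.64, Cxcr2 at 1.62 ± 0.79 and 1.11 ± 0.96, Cxcl5 at 1.41 ± 1.02 and 1.02 ± 0.96 and Ppbp at 1.98 ± 0.85 and 1.63 ± 0.82. Cxcr1 had 10 counts in GXNI against 2 in sham as labelled (ratio 5.26, exact 95% counting interval 1.12 to 49.4), and 1 against 2 in both other settings (ratio 0.756, 0.0128 to 14.5, without both and 0.519, 0.00879 to 9.97, exchanged). Of the 10 counts 9 came from GXNI 3, and these intervals leave out the spread between hearts.

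Markers of neutrophils, the cells that carry Cxcr2, moved with these genes when Lcn2 was left out. The summed level of 13 of 14 markers, among them S100a8, S100a9, Csf3r and Ly6g, was 60.8, 30.4 and 56.5 CPM in sham, 734, 28.9 and 698 CPM in MIRI and 51.1, 237 and 712 CPM in GXNI. Without Lcn2, which is also known from injured heart cells and was set aside after the values were seen, the sum was high in the same 4 libraries as Cxcr2. With it, the sums were 155 to 207 CPM in sham, 1120, 233 and 871 CPM in MIRI and 626, 677 and 843 CPM in GXNI. MIRI 2 and GXNI 1 were then above every sham library as well. None of the 14 genes was at 0 in all libraries, and 3 of the 12 tested were called higher in ischemic than in sham hearts. These were Trem1 (0.348 to 39.9 CPM against 0.298 to 0.589 CPM in sham), Clec4d (1.88 to 44.5 against 1.39 to 3.33 CPM) and Ltf, which had 0 counts in sham and at most 1.16 CPM. Their part in the level of the members was not tested. Of the other lists, macrophages (9 genes tested), cardiomyocytes (7), endothelial cells (6), fibroblasts (6), lymphocytes (5), red blood cells (5), atrial muscle (3) and adipocytes (1) had 0 genes called. Cardiomyocyte sums were lowest in the 4 libraries in which the members were high, at 25000, 29000, 26900 and 26200 CPM in MIRI 1, MIRI 3, GXNI 2 and GXNI 3, against 37100 to 39900 CPM in sham, 40800 CPM in MIRI 2 and 33100 CPM in GXNI 1. Fibroblast sums were lowest in the same libraries, at 561, 523, 538 and 449 CPM against 773 to 837, 727 and 958 CPM. The part of either in the level of the members was not tested. The mast cell genes Cma1 and Cpa3 were called lower (log2 fold change of both -1.29), though the sum of the 5 mast cell genes was 15.4, 45.5 and 46.8 CPM in MIRI 1, MIRI 3 and GXNI 3 against 7.04 to 7.89 CPM in sham. Wt1, of the mesothelium, was called higher (1.16), and the mesothelial sum was 8.93 to 13.8 CPM in 5 ischemic libraries and 72.4 CPM in GXNI 1 against 10.4 to 24 CPM in sham. The summed level of 4 atrial genes was 40.4 to 84.4 CPM in sham, 169 to 674 CPM in MIRI and 55.6 to 728 CPM in GXNI.

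Genes closest to Cxcr2 in pattern over the 9 libraries were Il1b, Clec4e, Il18rap, Cd300lf and Mcemp1. Closeness was the root mean square difference of centred log2 CPM among 13399 genes, and was 0.36, 0.40, 0.40, 0.46 and 0.49 in that order. Il1b, which encodes interleukin-1 beta, had 29, 15 and 59 counts in sham, 683, 14 and 718 in MIRI and 22, 232 and 644 in GXNI. The members were less close to Cxcr2, from 0.81 for Cxcl5 and 0.87 for Cxcl1 to 2.61 for Cxcl3. Closest to Cxcl2 were Trem1 (0.56), a myeloid receptor that is also on the neutrophil list, Slc7a11 (0.65), a cystine transporter, Cd177 (0.75), a neutrophil surface protein, Il11 (0.79), a cytokine, and Gm5483 (0.83). These are descriptions over all 9 libraries, sham and ischemic together, and what lies behind the closeness was not tested.

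Platelet markers did not follow Ppbp in every library. The 11 markers summed to 29.5, 27.3 and 21.7 CPM in sham, 28.1, 22.8 and 61.9 CPM in MIRI and 27.1, 37.8 and 33.6 CPM in GXNI, with Gp1bb at 0 throughout. MIRI 3 had the highest sum and the most Ppbp. In MIRI 1 the sum was inside the sham range while Ppbp, at 4.18 CPM, was above the sham libraries (0.589 to 1.29 CPM). Of the 4 platelet markers that could be tested, 0 were called in ischemic against sham hearts, and their part in the level of Ppbp was not tested.

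**Figure D4:**
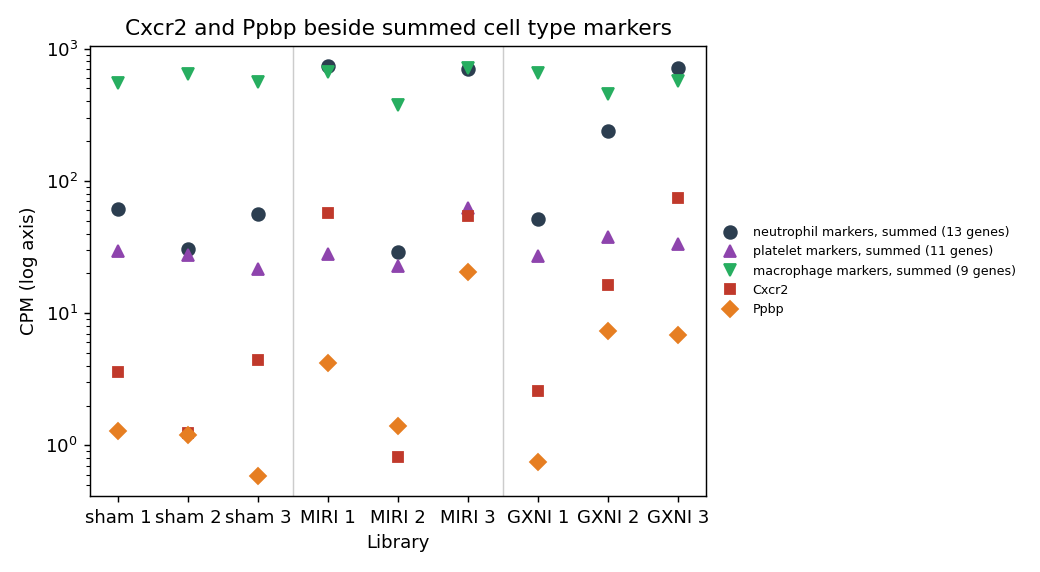
CPM on a log axis of Cxcr2 (squares) and Ppbp (diamonds) beside the summed CPM of neutrophil (circles, 13 genes without Lcn2), platelet (upward triangles, 11 genes) and macrophage (downward triangles, 9 genes) markers in each library. Cxcr2 and the neutrophil sum are high together in MIRI 1, MIRI 3, GXNI 2 and GXNI 3, while the platelet sum stays between 21.7 and 61.9 CPM.

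Other CXC ligands were read from the same fit. In ischemic against sham hearts 0 of the 7 tested were called, with a median log2 fold change of 0.30 beside 0.01 for all genes, where the 5 member ligands had a median of 3.76. Cxcl12, which holds and recruits Cxcr4-bearing cells and was the most abundant of them, averaged 161 ± 30.5 CPM (SD, n = 6) against 158 ± 40.8 CPM (SD, n = 3). Pf4, the neighbour of Ppbp, had a log2 fold change of 0.53 ± 0.33, Cxcl14 of -0.15 ± 0.46 and Cxcl16 of 0.29 ± 0.34. Cxcl10, an interferon-induced ligand of Cxcr3, was nearest to the threshold at 3.19 ± 1.43 (edgeR unadjusted p 0.04936).

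Among other CXC and atypical receptors, Cxcr6 was the 1 of 6 tested that was called higher in ischemic hearts (7.90 ± 6.01 CPM, SD, n = 6, against 0.740 ± 0.437 CPM, SD, n = 3). Its log2 fold change was 3.42 ± 1.02 with an edgeR adjusted p of 0.09265, and the call was lost without both MIRI 2 and GXNI 3 and without any single library but MIRI 2 and GXNI 1. Cxcr4, the receptor of Cxcl12, had 1.34 ± 0.72, and Ackr3, which removes Cxcl12, 0.55 ± 0.35. Ackr1, which binds and carries Cxcl1 and its relatives across vessel walls, had 0.81 ± 0.58, and Ackr2, which takes up CC chemokines, -0.07 ± 0.38. None of these 4 was called.

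Inducers and brakes of ligand transcription were called in 2 of 13 cases, both higher in ischemic hearts, beside 5.52% of all genes, and their median log2 fold change was 1.64 (0.01 for all genes). The 5 most abundant of them, given below, lay under this median. The 2 called were the cytokine Il6 (0.176 to 31.2 CPM against 0.107 to 0.535 CPM in sham) and the early-response factor Egr1 (11 to 135 against 5 to 11.5 CPM). Rela, the transactivating subunit of NF-kappa-B, had a log2 fold change of 0.76 ± 0.25 (edgeR unadjusted p 0.013) and Nfkb1, its partner, 0.40 ± 0.22. Nfkbia, the inhibitor that holds NF-kappa-B in the cytoplasm, had 0.83 ± 0.44, Cebpb 1.03 ± 0.43 and Zfp36, which promotes decay of chemokine messages, 0.72 ± 0.33. Nfkbia also carries GGGAATTTCC in its promoter window. Of the 29 genes with these letters 23 were in the counts and 14 were tested. Cxcl1, Cxcl2 and Cxcl3, from whose promoters the letters were picked, were the 3 called. None of the other genes tested with these letters was called, and the median over the 14 was -0.02.

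Of the genes that carry the signal below Cxcr2, 0 of 19 were called in ischemic against sham hearts, with a median log2 fold change of 0.48 (0.63 in MIRI against sham) beside 0.01 for all genes. Gnai2, the inhibitory G protein subunit found in leukocytes and many other cells, averaged 318 ± 38.8 CPM (SD, n = 6) against 241 ± 10.1 CPM (SD, n = 3). Its log2 fold change of 0.40 ± 0.12 had an edgeR unadjusted p of 0.007908 but stayed under a fold change of 1.5. The kinases Akt1 (-0.17 ± 0.14) and Mapk3 (-0.03 ± 0.13) and the receptor kinase Grk2 (0.19 ± 0.13) lay below this median.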

How the data were processed

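RNA of heart tissue was sequenced in 3 sham, 3 MIRI and 3 GXNI mice. The authors removed reads with adapters, poly-N or low quality, aligned with HISAT2 and counted with featureCounts to mm10 (submitters' processing notes), and deposited whole-number counts per gene that were not normalized. The study tested them with DESeq2. The versions and the strand setting are not given in the sources used here. Of 54532 gene identifiers, 54409 matched a GENCODE M21 symbol and 123 did not. 0 columns of other samples were used.

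Groups follow the labels. Comparisons were fitted over all genes with edgeR 4.0.16 (R 4.3.3), TMM normalization, filterByExpr at its defaults and the quasi-likelihood F test. A call required a 1.5-fold difference or more with p no larger than 0.01 before adjustment. CPM use TMM factors over the 9 libraries, and CPM per kb divide by the length of the longest protein-coding transcript. Alternatives were DESeq2 1.42.0, RLE normalization, no filter, mitochondrial genes left out, an adjusted p of 0.05, each library left out, a replicate block, 1 fit of all 9 libraries, and MIRI 2 and GXNI 3 left out or exchanged. DESeq2 with the exchange was added after the values were seen. The exchange was taken up from earlier results of these data. A check showed that the fold changes listed in the supplement of the study follow from the deposited counts when these libraries change places and do not follow from them as labelled. Each of the 36 pairs of libraries differed by more than sampling noise (chi-square per degree of freedom at least 13.2). Scripts were tested on simulated data.

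Named genes are the 7 members, up to 5 genes of each pathway list by mean CPM, and the 5 genes closest to Cxcr2 and to Cxcl2 with a mean count of at least 20 (prior count 0.5). Clec4d, Ltf, Trem1, Il6, Egr1, Cma1, Cpa3 and Wt1 were named after their values were seen. A gene of the signaling list is not reported here. Members and lists were chosen with earlier results of these data known. The comparisons of MIRI with sham and of GXNI with MIRI share the MIRI libraries.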

Additional observations from a re-analysis of the deposited data

How the results depend on the processing

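The number of members called moved with the setting, and so did the share of all genes called in the same direction, given in brackets. In ischemic against sham hearts 3 members were called higher (5.52%), 5 with DESeq2 (5.18%) and 5 with no filter (2.25%). An adjusted p of at most 0.05 gave 0 (0.0263%), and leaving out 1 library gave 0 to 5 (1.63 to 9.67%). In MIRI against sham 3 were called higher (6.15%), 5 with DESeq2 (5.34%) and 6 with no filter (2.94%). All 9 libraries in 1 fit gave 1 (3.52%), and an adjusted p of at most 0.05 gave 0 (0.0137%). There were 6 without MIRI 2 and GXNI 3 (16.9%), 6 with both exchanged (19.2%) and 7 with DESeq2 and the exchange (10.7%). Leaving out 1 library gave 0 to 6 (2.25 to 16.9%). In GXNI against MIRI 0 were called lower (0.0203%), 1 without both libraries (3.47%), 3 with both exchanged (10.7%) and 5 with DESeq2 and the exchange (6.78%). Leaving out 1 library gave 0 to 0, with 0 to 9 of all genes called lower. In GXNI against sham 1 was called higher (2.67%), 5 with DESeq2 (3.56%) and 5 with no filter (1.83%). All 9 libraries in 1 fit gave 1, Cxcl3 (1.97%), and an adjusted p of at most 0.05 gave 0 (0%). There were 0 without both libraries (2.11%), with both exchanged (2.16%) and with DESeq2 and the exchange (1.59%). Leaving out 1 library gave 0 to 6 (0.551 to 10.7%). RLE normalization and leaving out mitochondrial genes kept each of these counts within 1.5 times. No member was called lower against sham, and none higher in GXNI than in MIRI, under any alternative run.

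In GXNI against MIRI the sign of the log2 fold change turned for 6 genes, past the threshold, with the exchange or the loss of both libraries. As labelled it was 0.0 for Nfkbia, 0.01 for Nfkb1 and for Rela, 0.07 for Zfp36, 0.10 for Cxcl5 and 0.57 ± 1.60 for Cxcl10. The log2 fold change became -2.53 for Cxcl5 with DESeq2 and the exchange. It became -3.56 for Cxcl10, -0.68 for Nfkb1, -1.34 for Nfkbia, -0.76 for Rela and -0.81 for Zfp36 with the exchange in edgeR, and -3.60, -0.69, -1.36, -0.77 and -0.82 in DESeq2. For Nfkbia it was -1.04 without both libraries. In these settings 2 libraries change groups or drop out, and the cause of the turns was not tested. Below the threshold, leaving out 1 library moved the log2 fold change between -2.02 and 0.49 for Cxcl1, -2.47 and 0.10 for Cxcl2, -2.21 and -0.12 for Cxcl3, -1.30 and 0.73 for Cxcl5, -1.28 and 0.80 for Ppbp and -1.98 and 0.27 for Cxcr2. Cxcl5 also turned without both libraries (-1.83) and with the exchange in edgeR (-2.51).

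The replicate number was also fitted as a block. Deviations of same-numbered GXNI and MIRI libraries correlated at -0.445, 0.128 and 0.701 over 15207 genes, those of MIRI and sham at -0.0851, 0.0527 and 0.108, and those of GXNI and sham at 0.108, -0.0764 and 0.118. Signs differed between replicate numbers. Whether same-numbered mice shared a surgery day or batch cannot be told from these values. With the replicate block 2 members were called higher in ischemic against sham hearts (Cxcl1 and Cxcl3), 2 in MIRI against sham (Cxcl3 and Cxcl5), 1 in GXNI against sham (Cxcl1) and 0 in GXNI against MIRI, where Cxcr2 turned to 0.20. Of all genes 5.92%, 4.77% and 2.33% were called higher in the first 3. Depth limits Cxcr1, whose highest count was 19, and small shares of receptor counts.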
